A study of Mus musculus with 12 samples.

Results

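The genes described here are 10 genes of the urea cycle and of glutamine metabolism: Nags, Cps1, Otc, Slc25a15, Ass1, Asl, Arg1, Gls2, Glul and Oat. They were taken from a list of mouse symbols and matched to the Ensembl identifiers in the count files, which list 55487 genes. All 10 were found, and all 10 passed the filter on low counts among the 13535 genes tested. RNA was sequenced from cultured primary hepatocytes of the mouse. There are 3 libraries in each of 4 groups, 12 in all: cells without treatment (control), cells treated with FAC, which the labels leave as an abbreviation, and cells that received FAC after liproxstatin-1 (Lip-1+FAC) or after Mito-TEMPO (MT+FAC). The pretreatments were given on day 2 of culture. By the study's design text, liproxstatin-1 scavenges lipid reactive oxygen species (ROS) and Mito-TEMPO those of mitochondria. A scavenger without FAC was not among the groups, and the strain, sex and age of the mice and the doses are not given in the sources used here. The study asked how mitochondrial ROS shape the metabolism of hepatocytes and their sensitivity to ferroptosis, a form of cell death driven by iron-dependent lipid peroxidation.

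The urea cycle turns ammonia, which is toxic, into urea that the kidney can excrete, and the liver is the organ that runs the complete cycle. The cycle starts in mitochondria, where Nags (N-acetylglutamate synthase) makes the obligatory activator of Cps1 (carbamoyl phosphate synthetase 1). Otc (ornithine transcarbamylase) then joins carbamoyl phosphate to ornithine. Slc25a15 exchanges ornithine and citrulline across the inner mitochondrial membrane, and Ass1 (argininosuccinate synthase), Asl (argininosuccinate lyase) and Arg1 (arginase 1) complete the cycle in the cytosol. Gls2, the liver-type glutaminase, releases ammonia from glutamine, and Glul, glutamine synthetase, binds ammonia back into glutamine. Oat, ornithine aminotransferase, links ornithine to glutamate and proline. In the intact liver, the urea cycle and Gls2 belong mainly to hepatocytes near the portal vein, and Glul is confined to the hepatocytes around the central vein.

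Promoters of 3 genes stand for the courses described below: Nags was lower in every group given FAC, Otc was not called in any comparison, and Oat was lower in the pretreated groups. The bases before the RefSeq transcription start (GRCm38.p6) are printed 5′ to 3′ on the strand of the gene, and capitals mark CCAAT boxes (CCAAT on either strand). Nags is at chr11:102145263-102145512 (plus strand), Otc at chrX:10252055-10252304 (plus strand) and Oat at chr7:132576399-132576648 (minus strand).
Nags: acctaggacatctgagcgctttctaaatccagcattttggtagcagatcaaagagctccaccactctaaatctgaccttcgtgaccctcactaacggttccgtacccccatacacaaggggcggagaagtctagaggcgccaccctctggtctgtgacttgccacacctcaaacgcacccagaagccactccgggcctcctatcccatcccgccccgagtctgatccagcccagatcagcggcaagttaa
Otc: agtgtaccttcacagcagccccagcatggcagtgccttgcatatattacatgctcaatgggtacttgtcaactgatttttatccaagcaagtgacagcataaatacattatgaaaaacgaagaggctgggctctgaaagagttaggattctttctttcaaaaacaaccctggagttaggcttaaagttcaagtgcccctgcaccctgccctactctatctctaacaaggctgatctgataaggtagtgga
Oat: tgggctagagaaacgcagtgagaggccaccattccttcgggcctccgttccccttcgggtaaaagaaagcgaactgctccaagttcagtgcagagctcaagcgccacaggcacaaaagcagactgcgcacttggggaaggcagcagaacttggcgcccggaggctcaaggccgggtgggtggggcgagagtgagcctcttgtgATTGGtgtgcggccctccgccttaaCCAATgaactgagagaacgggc
The letters of 8 motifs were searched on both strands in the 250 bases upstream of the start. The motifs were TTGCNNAA (C/EBP), TGACNNNGC (antioxidant response element), TGATGNAA (ATF4 and C/EBP), TGACGTCA (cAMP response element), CAAAGTCCA (HNF4), CCAAT (the CCAAT box), TATAAA (the TATA box) and CACGTG (the E-box). RefSeq windows were at hand for 6 of the 10 genes: Nags, Otc, Slc25a15, Ass1, Glul and Oat. CCAAT occurred in Glul and Oat, and in 33.8% of all 32851 promoter windows. CACGTG occurred in Ass1 and Slc25a15, and in 6.02% of all windows. The other 6 motifs were in none of the windows of these 6 genes, and their shares over all promoter windows ran from 0.384% for CAAAGTCCA to 12.4% for TATAAA. A match describes the letters of this window and is no evidence of binding.

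Depth was 22991598 to 31683376 gene-assigned counts in 11 libraries and 52529278 in FAC replicate 2, a file marked as combined. Of the reads listed per library, 75.8% to 77.8% were assigned to genes in FAC and 78.0% to 79.8% in control, against 80.4% to 81.2% with liproxstatin-1 and 80.5% to 80.7% with Mito-TEMPO. This share was therefore lowest where the FAC libraries stood, and its part in the results was not tested. The 10 hepatocyte markers summed to 56112 to 59442 CPM in control, where CPM is the count scaled to a common library size with TMM factors. In FAC their sum was 51732 to 54602 CPM, below every library of the other groups, against 55746 to 61167 CPM with liproxstatin-1 and 60300 to 61139 CPM with Mito-TEMPO. Trf carried most of it, with group means of 38124 CPM in control and 33565 CPM in FAC, while Alb averaged 9625 CPM in control and 9879 CPM in FAC. In the pretreated groups, Trf and Apob had higher means than in control and FAC, and the other 8 markers had lower means than in either. Apoa1, for example, averaged 3232 CPM in control and 3467 CPM in FAC, but 2191 and 2330.4 CPM with liproxstatin-1 and Mito-TEMPO. The 8 macrophage markers summed to 224 to 257 CPM in control and 289 to 322 CPM in FAC. With liproxstatin-1 their sum was 118 to 146.9 CPM and with Mito-TEMPO 143.9 to 176 CPM, but Cd68 held most of these sums. Over all libraries, the other 7 averaged 0.618 CPM (Cd5l) to 3.77 CPM (Lyz2), and they did not all follow the sum: Clec4f averaged 1.1 CPM in control and 0.4996 CPM in FAC, and Lyz2 3.5 and 2.84 CPM. The 7 endothelial markers, carried by Stab2, summed to 37.3 to 37.5 CPM in control and 35.1 to 36.5 CPM in FAC. Both pretreated groups lay below these, at 28.0 to 29.6 CPM with liproxstatin-1 and 28.3 to 32.0 CPM with Mito-TEMPO. Stab2 carried this difference, while Pecam1, Kdr and Eng had higher means in both pretreated groups than in control and FAC. The 9 stellate cell markers summed to 21.9 to 29.5 CPM in control and 30.9 to 39.6 CPM in FAC, against 15.4 to 18.8 CPM with liproxstatin-1 and 17.2 to 22.4 CPM with Mito-TEMPO. Reln and Acta2 carried the higher sum in FAC, with means of 7.46 and 9.12 CPM in control and 16.1 and 12.1 CPM in FAC, and each of the other 7 stellate markers had a lower mean in FAC than in control. The 6 cholangiocyte markers summed to 58.6 to 69.0 CPM in control and 98.4 to 123 CPM in FAC, against 110 to 125 CPM with liproxstatin-1 and 104 to 144.7 CPM with Mito-TEMPO. Their courses differed. Sox9 averaged 17.4 CPM in control and 53.4 CPM in FAC, but 12.01 and 15.1 CPM in the pretreated groups, and Krt19, Krt7 and Epcam likewise had their highest mean in FAC and lower means in the pretreated groups than in control. Spp1 averaged 40.7 CPM in control and 43.6 CPM in FAC, but 101 and 103 CPM with liproxstatin-1 and Mito-TEMPO. Cftr among them had at most 2 counts in a library. Lymphocyte markers stayed below 0.432 CPM in sum, and 3 of these 5, Cd3e, Ms4a1 and Nkg7, were at 0. The 5 erythroid markers summed to at most 12.9 CPM, nearly all of it Alas2. The part of these marker changes in the results below was not tested. In bulk RNA, fewer cells of a type and less of an RNA per cell cannot be told apart.

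Levels are compared between genes only per kilobase of the principal annotated transcript (CPM per kb). In control, Arg1 stood at 315 ± 23.5 and Cps1 at 305 ± 39.9 CPM per kb (SD, n = 3), and their libraries overlapped. Ass1 followed at 113 ± 18.3, Asl at 61.0 ± 2.1, Slc25a15 at 43.2 ± 1.19, Nags at 34.2 ± 1.37, Oat at 30.9 ± 5.87 and Gls2 at 17.5 ± 1.83 CPM per kb. Of these neighbours, Nags and Oat overlapped and the others did not. Glul at 6.37 ± 2.44 and Otc at 4.98 ± 0.122 CPM per kb were lowest and overlapped each other. The mRNAs of the mitochondrial steps thus spanned from among the highest to the lowest of the 10, with Otc far below Cps1. In FAC, Ass1 at 116 ± 8.19 overlapped Cps1 at 128 ± 26.3 CPM per kb, whereas in control every Cps1 library was above every Ass1 library. The place of Ass1 in these orders is uncertain, because reads shared with its near-identical annotated copy Gm5424 are not counted. Nags dropped below Oat and overlapped Gls2 in FAC, at 18.2 ± 2.87 and 21.5 ± 2.4 CPM per kb. In Lip-1+FAC and MT+FAC, Cps1 and Arg1 again overlapped at the top, and Ass1 overlapped Asl.

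**Figure D1:**
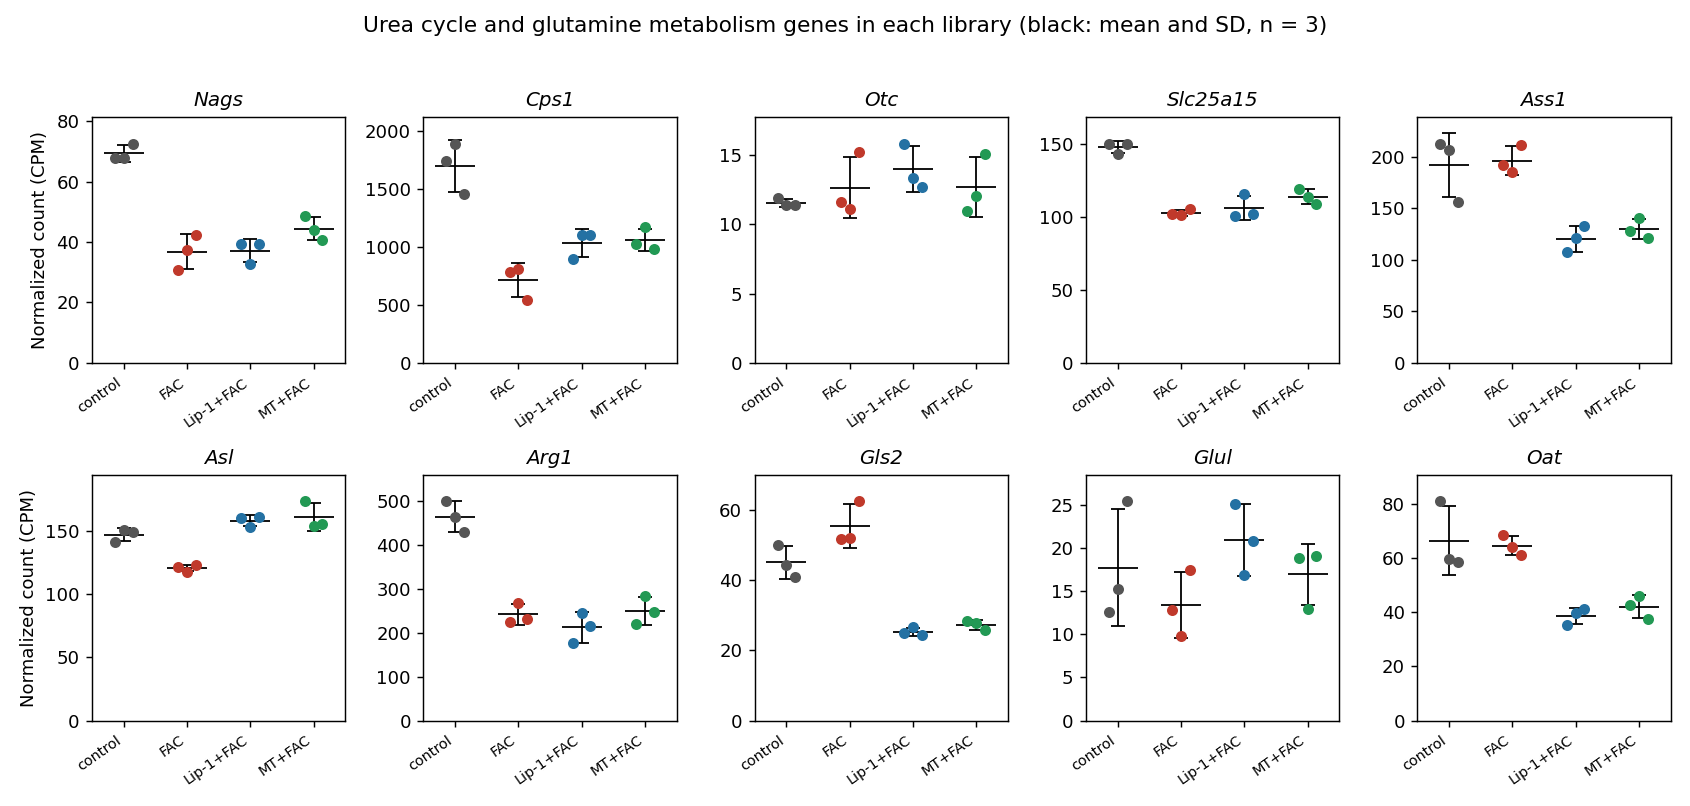
Normalized count (CPM, vertical axis from 0) of each of the 10 genes in the 12 libraries, by group; points are libraries and black marks are the mean and SD of 3. Cps1, Nags, Slc25a15 and Arg1 lie highest in control, whereas Ass1, Gls2 and Oat lie lowest in the pretreated groups.

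FAC lowered 5 of the 10 genes relative to control, raised Gls2, and left 4 without a call. At an adjusted p under 0.05 over all genes tested, 36.6% of all genes were called, 19.1% lower and 17.5% higher. The median log2 fold change of the 10 genes was -0.36, beside -0.01 over all genes tested. Libraries of FAC and control were apart, with no overlap, for 6 of the 10 genes and for 46.2% of all genes tested.

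Cps1 (ENSMUSG00000025991, GRCm38 chromosome 1, 67123026 to 67231259) showed the largest fall of the 10. Its level was 1742, 1890.1 and 1454 CPM in the control libraries and 785, 806 and 543 CPM in the FAC libraries. The lowest control library was therefore well above the highest FAC library. The log2 fold change was -1.25 (standard error 0.162, adjusted p = 0.000191 by edgeR), so that FAC cells held 42.0 ± 8.62% of the control mean (SD, n = 3). Nags (ENSMUSG00000048217, chromosome 11, 102145513 to 102149477), which makes the activator of Cps1, was at 67.8, 67.7 and 72.6 CPM in control. It was at 30.8, 37.3 and 42.4 CPM in FAC, with no overlap, a log2 fold change of -0.91 (standard error 0.104, adjusted p = 3.41e-06 by edgeR). Of the exonic bases of Nags, 15.6% overlap Gm11586, which had at most 5 counts in a library.

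Otc (ENSMUSG00000031173, chromosome X, 10252305 to 10321024), which uses the product of Cps1, was not called. It was at 11.9, 11.4 and 11.4 CPM in control and 11.6, 11.1 and 15.2 CPM in FAC, so that the groups overlapped. The log2 fold change was 0.12, with a 95% interval from -0.18 to 0.42. A fall of the size seen for Cps1 or Nags lies outside this interval. Slc25a15 (ENSMUSG00000031482, chromosome 8, 22375551 to 22398597), the ornithine carrier, fell from 150.7, 143.5 and 150.4 CPM to 102, 102 and 106 CPM. Replicates of this gene lay close together, and the log2 fold change was -0.52 (standard error 0.0619, adjusted p = 4.32e-06 by edgeR).

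Among the cytosolic enzymes, Arg1 (ENSMUSG00000019987, chromosome 10, 24915221 to 24927484), which releases urea, stood at 501, 465 and 431 CPM in control. FAC libraries held 225, 268 and 233 CPM of Arg1, which is 52.0 ± 4.93% of the control mean (SD, n = 3). The groups were apart by a log2 fold change of -0.94 (standard error 0.123, adjusted p = 9.7e-05 by edgeR). Asl (ENSMUSG00000025533, chromosome 5, 130011258 to 130029247), which splits argininosuccinate, fell less, from 141.4, 150.7 and 149.6 CPM to 122, 118 and 123 CPM. Its log2 fold change was -0.28 (standard error 0.0581, adjusted p = 0.000865 by edgeR). Ass1 (ENSMUSG00000076441, chromosome 2, 31470207 to 31520672), the step before Asl, was not called. It was at 213, 207 and 156 CPM in control and 192, 185 and 212 CPM in FAC, a difference of 0.03 with a 95% interval from -0.21 to 0.27. Counts of Ass1 are uncertain in level, because 1240 bases of its principal transcript match Gm5424 at 99.5% identity and reads that fit both are not counted. Gm5424 itself had at most 239 counts in a library.

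In glutamine metabolism, Gls2 (ENSMUSG00000044005, chromosome 10, 128194457 to 128210004) was at 50.1, 44.2 and 40.8 CPM in control and 51.6, 51.9 and 62.4 CPM in FAC. The FAC libraries lay above the control libraries by a narrow gap, and the log2 fold change was 0.30 (standard error 0.0902, adjusted p = 0.0155 by edgeR). This call was lost without control replicate 3, at 0.23, and without FAC replicate 3, at 0.20. Glul (ENSMUSG00000026473, chromosome 1, 153899944 to 153909723) varied most between replicates, with 12.6, 15.3 and 25.5 CPM in control and 12.9, 9.82 and 17.4 CPM in FAC. Its difference of -0.43 was not called, and the 95% interval from -1.11 to 0.25 leaves room for a fall as large as that of Nags. Near-identical copies of Glul in the annotation, Glns-ps1 and AC134576.3, had at most 3 counts in a library. Oat (ENSMUSG00000030934, chromosome 7, 132557478 to 132576398) was at 81.0, 59.8 and 58.5 CPM in control and 68.5, 64.1 and 61.2 CPM in FAC. The groups overlapped, and the difference of -0.04 had a 95% interval from -0.28 to 0.20.

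**Figure D2:**
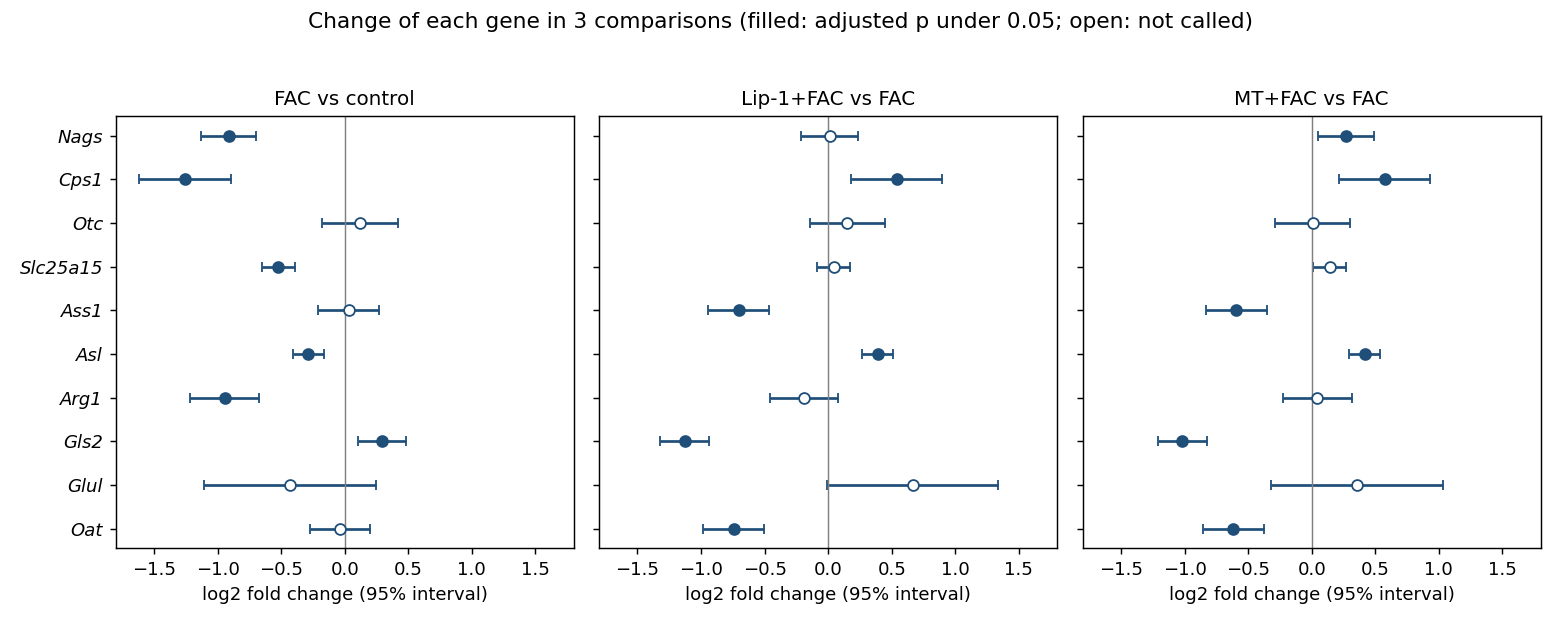
Log2 fold change (horizontal axis) of each gene in FAC against control and in each pretreated group against FAC, with 95% intervals from the edgeR fit; filled points are called and open points are not. Cps1 (-1.25), Arg1 (-0.94) and Nags (-0.91) lie farthest left in the first panel, and Gls2 (-1.13 and -1.02) lies farthest left in the other two.

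Pretreatment with liproxstatin-1 was compared with FAC alone. It raised 2 of the 10 genes, Cps1 and Asl, and lowered 3, Gls2, Oat and Ass1. Over all genes tested, 39.9% were called in this comparison, 20.7% higher and 19.2% lower. The median over the 10 genes was 0.03, beside 0.00 over all genes, because the called members went both ways. Libraries did not overlap for 5 of the 10 genes, as for 50.8% of all genes. This comparison and that of FAC with control share the FAC libraries, so that their values are set side by side and not related to each other.

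Cps1 reached 893, 1105 and 1106 CPM with liproxstatin-1, above every FAC library. The log2 fold change was 0.54 (standard error 0.16, adjusted p = 0.0222 by edgeR). The call was lost when Lip-1+FAC replicate 2 or replicate 3 was left out, at 0.49 in either fit. It was also lost with no filter on low counts, at 0.54, and with only the groups compared in the fit, at 0.53. Asl stood at 160.1, 153 and 161 CPM, clear of the FAC libraries, a rise of 0.39 (standard error 0.0581, adjusted p = 3.93e-05 by edgeR). Nags, at 39.4, 32.7 and 39.3 CPM, overlapped FAC, with a difference of 0.01 and a 95% interval from -0.21 to 0.23. Slc25a15, at 101, 116 and 102 CPM, and Arg1, at 176, 245 and 215 CPM, overlapped FAC as well. Their differences were 0.04, with an interval from -0.09 to 0.17, and -0.19, with an interval from -0.46 to 0.08.

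Gls2 fell to 24.8, 26.5 and 24.4 CPM, with no FAC library below 51.6 CPM. This was the largest change among the 10 genes in the comparison, at -1.13 (standard error 0.0927, adjusted p = 6.01e-08 by edgeR). Oat fell to 35.1, 39.6 and 41.1 CPM, a log2 fold change of -0.74 (standard error 0.113, adjusted p = 8.46e-05 by edgeR). Ass1 fell to 107, 121 and 133 CPM, a log2 fold change of -0.70 (standard error 0.111, adjusted p = 0.000225 by edgeR). Neither of these genes had been called in FAC against control, and in each the pretreated libraries lay below all FAC libraries. Glul, at 25.2, 16.9 and 20.8 CPM, overlapped FAC narrowly. Its difference of 0.67 (standard error 0.301, adjusted p = 0.107 by edgeR) was not called, and was called at 0.66 with only the groups compared in the fit. Otc, at 15.8, 13.4 and 12.7 CPM, was not called, with a difference of 0.15.

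Pretreatment with Mito-TEMPO was compared with FAC alone in the same way. Higher calls were made for Cps1, Asl and Nags and lower calls for Gls2, Oat and Ass1, which is 6 of the 10 genes. Over all genes tested, 40.9% were called, 21.2% higher and 19.7% lower. The median over the 10 genes was 0.09, beside 0.00 over all genes. There was no overlap between these groups for 6 of the 10 genes and for 52.9% of all genes.

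Cps1 stood at 1025, 1170.2 and 984 CPM with Mito-TEMPO, a rise of 0.57 (standard error 0.16, adjusted p = 0.0163 by edgeR). The call was lost without MT+FAC replicate 2, at 0.48, and with no filter on low counts, at 0.58. Asl stood at 174, 154 and 156 CPM, a rise of 0.42 (standard error 0.058, adjusted p = 2.32e-05 by edgeR). Both genes lay above all FAC libraries. Nags, at 48.5, 44.1 and 40.7 CPM, overlapped FAC by its lowest library. Its rise of 0.27 (standard error 0.104, adjusted p = 0.045 by edgeR) was at the edge of the threshold and is not a stable call. It was lost without FAC replicate 1, at 0.16, without FAC replicate 2, at 0.28, without MT+FAC replicate 1, at 0.20, and without MT+FAC replicate 2, at 0.27. It was also lost among genes of a mean of at least 5 CPM, at 0.26, with only the groups compared in the fit, at 0.27, and with the stranded columns, at 0.25. Slc25a15, at 119, 114 and 109 CPM, lay above all FAC libraries but was not called, at 0.14 (standard error 0.0619, adjusted p = 0.0734 by edgeR). With upper-quartile scaling it was called, at 0.16 (adjusted p = 0.0486 by edgeR). Arg1, at 219, 283 and 247 CPM, overlapped FAC, with a difference of 0.05 and a 95% interval from -0.22 to 0.31.

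Gls2 fell to 28.2, 27.8 and 25.7 CPM, a log2 fold change of -1.02 (standard error 0.092, adjusted p = 2.36e-07 by edgeR). Oat, at 42.5, 46.1 and 37.5 CPM, and Ass1, at 128, 140.5 and 122 CPM, were below all FAC libraries. Their log2 fold changes were -0.62 (standard error 0.113, adjusted p = 0.000443 by edgeR) and -0.59 (standard error 0.111, adjusted p = 0.000887 by edgeR). Glul, at 18.9, 12.9 and 19.2 CPM, and Otc, at 10.9, 12.04 and 15.1 CPM, overlapped FAC and were not called, with differences of 0.36 and 0.01.

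The pretreatments were compared with each other directly, as MT+FAC against Lip-1+FAC. None of the 10 genes was called by edgeR, nor by DESeq2 or in any other fit run. Over all genes, edgeR called 1.34%, with 0.465% higher and 0.879% lower. At an unadjusted p under 0.05, 1 of the 10 genes differed, as did 13.3% of all genes. That gene was Nags, higher with Mito-TEMPO by 0.26 (edgeR adjusted p = 0.269), with a 95% interval from 0.04 to 0.48 before adjustment and no overlap between libraries. Groups without overlap made up 19.8% of all genes here. The intervals of the other genes all included 0. They were narrow for Asl, from -0.09 to 0.15, and for Slc25a15, from -0.03 to 0.23. For Cps1 the interval ran from -0.32 to 0.39, for Arg1 from -0.03 to 0.50 and for Glul from -0.97 to 0.36, so that differences of moderate size remain possible there.

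Pretreated cells were also set against control, a comparison in which FAC and the scavenger change together. In Lip-1+FAC, 7 of the 10 genes were lower than control and 0 higher, where 30.2% of all genes were called, 14.8% lower and 15.4% higher. In MT+FAC, 7 were again lower and 0 higher, where 19.8% of all genes were called, 10.1% lower and 9.71% higher. The genes called lower were Nags, Cps1, Slc25a15, Ass1, Arg1, Gls2 and Oat in each comparison, which share the control libraries. The medians over the 10 genes were -0.69 and -0.60, beside -0.02 and -0.00 over all genes. Libraries stood apart from control for 9 of the 10 genes with liproxstatin-1, beside 43.3% of all genes, and for 8 of the 10 with Mito-TEMPO, beside 38.2%.

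Arg1 was the farthest from control in both, at -1.13 (standard error 0.124, adjusted p = 3.35e-05 by edgeR) with liproxstatin-1 and -0.90 (standard error 0.123, adjusted p = 0.000479 by edgeR) with Mito-TEMPO. Cps1 remained at 61.0 ± 7.23% and 62.5 ± 5.78% of the control mean (SD, n = 3), with log2 fold changes of -0.71 (edgeR adjusted p = 0.00765) and -0.68 (edgeR adjusted p = 0.0149). The latter call was lost without control replicate 1, at -0.66, without MT+FAC replicate 1, at -0.66, and without MT+FAC replicate 3, at -0.63. With no filter on low counts it was also lost, at -0.66. Nags was at 53.5 ± 5.57% and 64.1 ± 5.63% of control, and Slc25a15 at 71.8 ± 5.6% and 76.9 ± 3.48%. Gls2, Oat and Ass1, which FAC alone had not lowered, stood at 56.1 ± 2.48%, 58.1 ± 4.65% and 62.7 ± 6.72% of control with liproxstatin-1. With Mito-TEMPO they stood at 60.5 ± 3.02%, 63.3 ± 6.46% and 67.7 ± 5.03%. Asl was at 107 ± 2.98% and 109 ± 7.46% of control and was not called. All pretreated Asl libraries were nevertheless above all control libraries, and the 95% interval of the log2 difference was -0.02 to 0.23 with liproxstatin-1 and 0.01 to 0.25, before adjustment, with Mito-TEMPO.

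**Figure D3:**
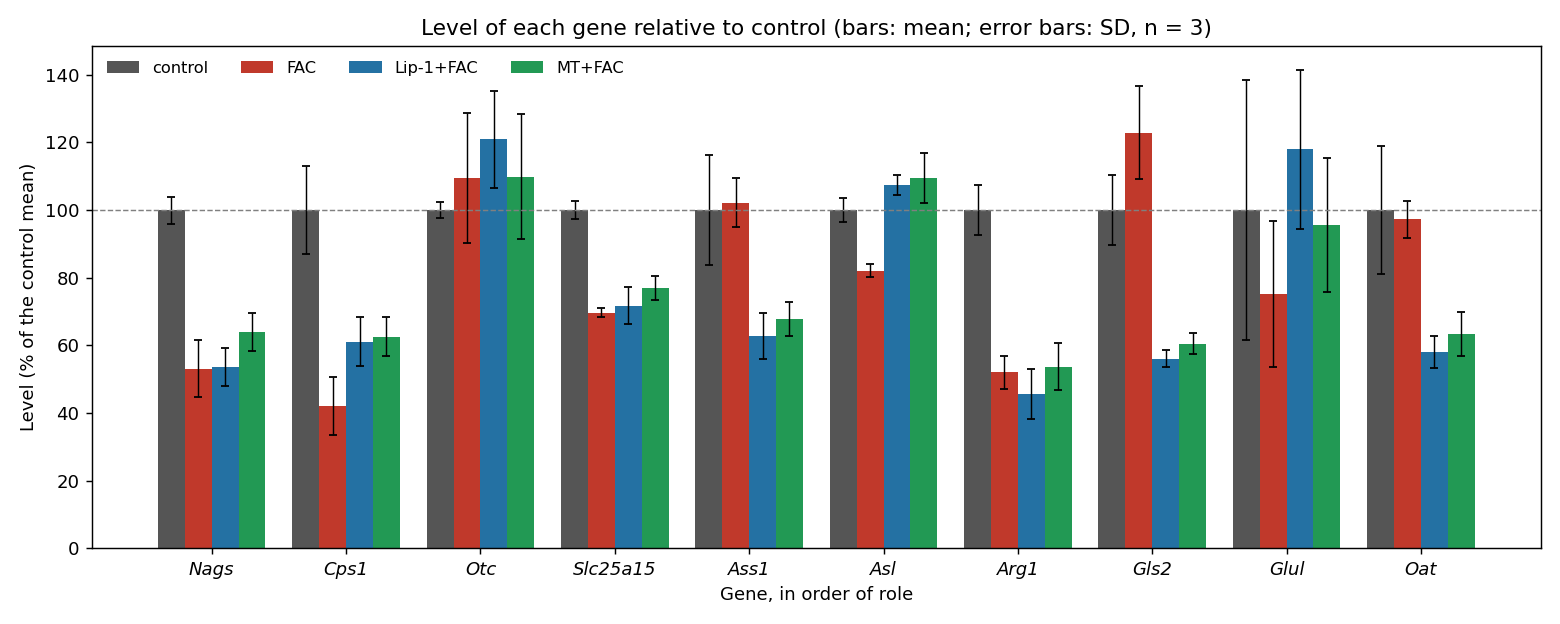
Level of each gene as a percentage of its control mean (vertical axis from 0), by group; bars are means and error bars are SD of 3 libraries. Cps1 goes from 42.0% in FAC to 61.0% and 62.5% in the pretreated groups, Arg1 lies at 52.0%, 45.6% and 53.7%, and Gls2 goes from 123% to 56.1% and 60.5%.

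The balance of steps within a library followed from these courses. The 10 genes summed to 2859 ± 269.8 CPM (SD, n = 3) in control and 1556.5 ± 125 CPM in FAC. In Lip-1+FAC the sum was 1768 ± 164 CPM and in MT+FAC 1858 ± 131 CPM, and no pretreated library reached the lowest control library at 2551 CPM. These sums and the ratios below are of counts that are not scaled by transcript length, so that they compare groups and not the levels of genes. Counts of Cps1 made up 59.2 ± 2.48% of the sum in control and 45.4 ± 6.07% in FAC. The count of Cps1 per count of Ass1 was 8.18 to 9.3 in control and 2.56 to 4.36 in FAC. It was 8.31 to 9.12 in Lip-1+FAC and 7.996 to 8.33 in MT+FAC, where both genes were lower than in control. The ratio thus stood near its control range in the pretreated groups at lower levels of both mRNAs. The count of Gls2 per count of Glul was 1.6 to 3.99 in control and 3.58 to 5.28 in FAC, against 0.983 to 1.57 with liproxstatin-1 and 1.34 to 2.16 with Mito-TEMPO. FAC and the pretreated groups did not overlap in this ratio, whereas control overlapped FAC and MT+FAC. These sums and ratios are descriptions without a test.

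**Figure D4:**
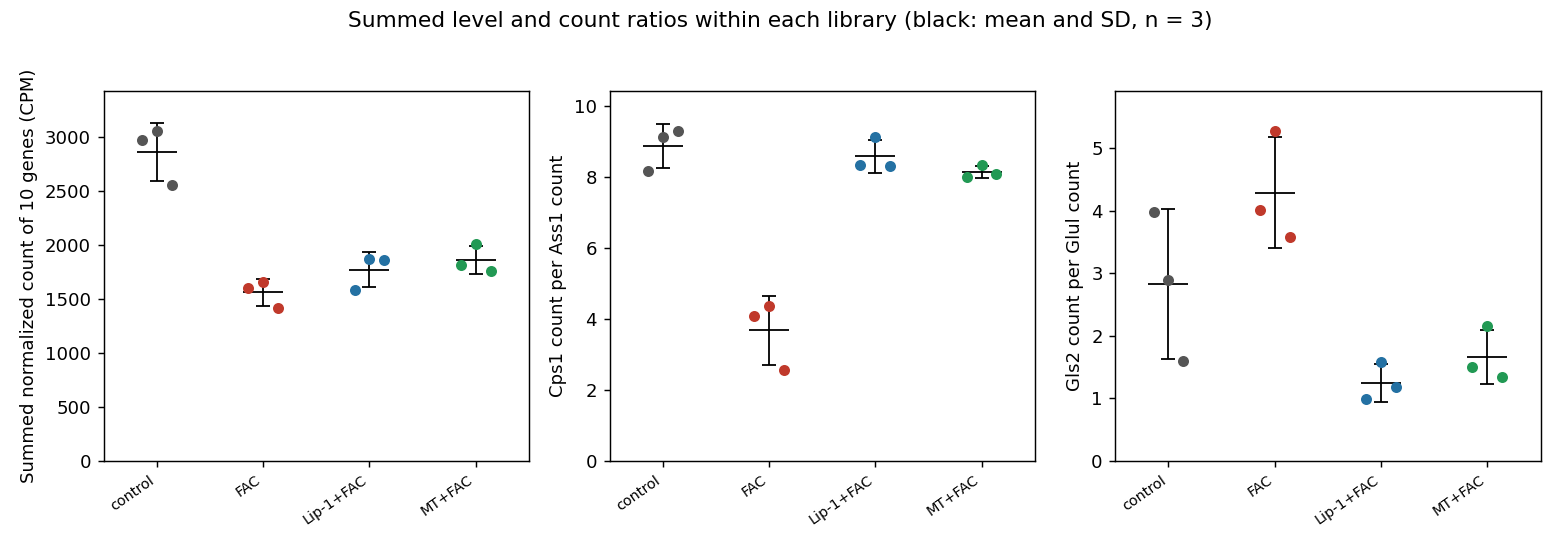
Sum of the normalized counts of the 10 genes (left, CPM), Cps1 count per Ass1 count (middle) and Gls2 count per Glul count (right) in each library, by group, with axes from 0; black marks are the mean and SD of 3. The Cps1 to Ass1 ratio lies at 2.56 to 4.36 in FAC and at 7.996 to 9.3 in the other groups, and the Gls2 to Glul ratio lies at 3.58 to 5.28 in FAC.

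Other genes that supply or use arginine and ornithine were read from the same fit. Changes here and in the next paragraphs are log2 fold changes, and values in series are given for FAC against control, then Lip-1+FAC and MT+FAC against FAC. Of 15 listed, 14 were tested. FAC raised 2 and lowered 5, liproxstatin-1 against FAC raised 2 and lowered 6, and Mito-TEMPO against FAC raised 1 and lowered 4. Over all genes tested, 17.5% were higher and 19.1% lower with FAC, 20.7% and 19.2% with liproxstatin-1, and 21.2% and 19.7% with Mito-TEMPO. The list medians were -0.12, -0.18 and -0.06, beside -0.01, 0.00 and -0.00 over all genes. Arg2, the mitochondrial arginase, was scarce, at 0.0427, 0.3 and 0.671 CPM in control and 1.32, 1.7 and 1.45 CPM in FAC. It rose by 2.12 with FAC (standard error 0.582, adjusted p = 0.00839 by edgeR), opposite in direction to Arg1, and the pretreatments against FAC gave -2.26 and -1.78. All of its libraries stayed under 2 CPM. The arginine transporter Slc7a1 rose by 1.06 with FAC (SE 0.147), while Slc7a2, the arginine transporter of hepatocytes, changed by -0.59 (SE 0.0757). The mitochondrial carbonic anhydrase Car5a, which supplies bicarbonate to Cps1, changed by -1.17 (SE 0.314) at a mean of 1.97 CPM in control. Agmat changed by -0.67 with FAC and by 0.67 against FAC in each pretreatment. The aspartate-glutamate carrier Slc25a13 was not called with FAC, at -0.05, and changed by -0.39 and -0.32 against FAC with liproxstatin-1 and Mito-TEMPO. It feeds the aspartate that Ass1 uses. Odc1, which turns ornithine into putrescine, changed by -0.26 against FAC in each. Oaz2 and Azin1, which control Odc1, changed by -0.20 and -0.25 with liproxstatin-1 and by -0.01, not called, and -0.36 with Mito-TEMPO. Some calls against FAC rested on single libraries. For Slc7a1 with liproxstatin-1 the call was lost without FAC replicate 1, at -0.40, or Lip-1+FAC replicate 1, at -0.34. With Mito-TEMPO it was lost for Arg2 without FAC replicate 2, at -1.67, or MT+FAC replicate 1, at -1.59, and for Slc25a13 without MT+FAC replicate 1, at -0.28, or replicate 3, at -0.26. For Odc1 it was lost without Lip-1+FAC replicate 1, at -0.21, and without MT+FAC replicate 1, at -0.19.

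Of 29 listed genes for glutamate and glutamine handling, 27 were tested. FAC raised 6 and lowered 9, liproxstatin-1 raised 8 and lowered 7, and Mito-TEMPO raised 9 and lowered 6. The shares of all genes higher and lower were 17.5% and 19.1%, 20.7% and 19.2%, and 21.2% and 19.7% in these comparisons. The list medians were -0.02, 0.03 and 0.07, beside -0.01, 0.00 and -0.00 over all genes. Slc38a3, a glutamine transporter of the hepatocyte membrane, changed by -0.22 with FAC and rose by 0.70 and 0.62 against FAC (SE 0.0583 and 0.0582). Its libraries stood at 173, 191 and 201 CPM in control and 167, 162 and 156 CPM in FAC. With liproxstatin-1 they stood at 266, 257 and 263 CPM, and with Mito-TEMPO at 256, 244 and 247 CPM. The pretreated libraries were thus above control as well as FAC. Another transporter of the family, Slc38a1, was not called with FAC, at -0.20, and changed by -1.77 and -0.92 against FAC. Slc7a5, a carrier of large neutral amino acids, rose by 0.95 with FAC and changed by -0.96 and -0.45 against FAC. Glud1, glutamate dehydrogenase, changed by -0.20 with FAC. Asns, asparagine synthetase, was not called with FAC at -0.00, nor with liproxstatin-1 at 0.15, and rose by 0.26 with Mito-TEMPO. Kyat1, a glutamine transaminase, changed by -0.89 with FAC and by 0.30 and 0.56 against FAC. Gpt2 and Nit2, which act on alanine and on glutamine-derived ketoacids, had a like course, at -0.69, 0.32 and 0.52 and at -0.47, 0.35 and 0.40 in the same 3 comparisons. The transporters Slc38a4 and Slc38a2 went opposite ways, at -0.46, 0.38 and 0.26 and at 0.55, -0.26 and -0.37. Gfpt1, which uses glutamine for hexosamines, stood at 0.36, -0.47 and -0.36. Slc1a4 rose by 0.89 with FAC and was not called against FAC, at 0.15 and 0.07. The call of Glud1 with FAC was lost without control replicate 2, at -0.18, control replicate 3, at -0.16, or FAC replicate 1, at -0.17. With Mito-TEMPO, the call of Asns was lost without FAC replicate 1, at 0.23, or MT+FAC replicate 2, at 0.17. That of Slc7a5 was lost without FAC replicate 1, at -0.46, FAC replicate 2, at -0.35, MT+FAC replicate 1, at -0.41, or MT+FAC replicate 3, at -0.39.

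All 11 listed genes of proline and histidine breakdown and proline synthesis were tested. FAC lowered 5 and raised 0, where 19.1% of all genes were lower and 17.5% higher. Liproxstatin-1 raised 4 and lowered 2 (all genes 20.7% and 19.2%), and Mito-TEMPO raised 6 and lowered 3 (all genes 21.2% and 19.7%). Medians of this list were -0.27, 0.14 and 0.30. In the histidine pathway, which ends in glutamate, Hal, the first enzyme, was not called with FAC, at -0.23, and changed by -1.26 and -0.85 against FAC. Uroc1, the next enzyme, stood at -0.48, 1.19 and 0.83, and Amdhd1, which follows it, at -0.90, 0.56 and 0.55. The call of Uroc1 with FAC was lost without control replicate 2, at -0.41. Relative to the control mean, Uroc1 was at 71.8% in FAC and at 164% and 128% in Lip-1+FAC and MT+FAC, and Amdhd1 at 53.6%, 78.9% and 78.9%. Ftcd, the last step of that pathway, changed by -0.49 with FAC. Of the proline enzymes, Prodh rose by 0.48 and 0.45 against FAC, and Aldh18a1, which makes proline precursors, by 0.30 and 0.49. Aldh4a1 changed by -0.30 and -0.27 and Prodh2 by -0.19, not called, and -0.35. The calls of Aldh4a1 were lost without FAC replicate 3, at -0.23 and -0.20, and with Mito-TEMPO also without MT+FAC replicate 3, at -0.24. That of Prodh2 was lost without FAC replicate 3, MT+FAC replicate 2 or MT+FAC replicate 3, at -0.30 each. Among 21 listed enzymes of other amino acids, FAC lowered 9 and raised 0, again beside 19.1% and 17.5% of all genes. Each pretreatment raised 7 and lowered 5, beside 20.7% and 19.2% of all genes with liproxstatin-1 and 21.2% and 19.7% with Mito-TEMPO. Medians were -0.23, 0.09 and 0.09. Bhmt (betaine-homocysteine methyltransferase) changed by -1.20 with FAC and by 1.71 and 1.57 against FAC. Hgd, an enzyme of tyrosine breakdown, changed by -1.48, 1.58 and 1.56. Bcat2, a branched-chain aminotransferase, changed by -1.68, 0.78 and 1.11, and Mat1a, which makes S-adenosylmethionine, by -0.58, 1.02 and 1.10. Agxt and Gnmt, enzymes of glycine metabolism, were not called with FAC and changed by -0.90 and -0.74 with liproxstatin-1 and by -0.82 and -0.69 with Mito-TEMPO, each against FAC. Hpd, which acts before Hgd in tyrosine breakdown, was not called with FAC, at -0.09, and changed by -1.01 and -0.86 against FAC, opposite to Hgd.

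Of 19 listed transcriptional and hormonal regulators, 3 rose and 6 fell with FAC, and likewise 3 rose and 6 fell against FAC in each pretreatment, with medians of -0.09, 0.03 and 0.01. Of all genes, 17.5% were higher and 19.1% lower with FAC, against 20.7% and 19.2% with liproxstatin-1 and 21.2% and 19.7% with Mito-TEMPO. Cebpa and Hnf4a, factors known to act on urea cycle genes, were not called with FAC, at 0.05 and -0.27, nor in the pretreatments, at 0.12 and -0.07 with liproxstatin-1 and 0.01 and 0.03 with Mito-TEMPO. Gcgr, the receptor for glucagon, a hormone that induces urea cycle enzymes, changed by -0.78 with FAC (standard error 0.167, adjusted p = 0.00398 by edgeR) and rose by 1.27 and 1.36 against FAC. Klf15, a regulator of amino acid catabolism, changed by -0.82 with FAC. Cebpb was not called with FAC, at 0.45, and changed by -0.91 and -0.92 against FAC. Ppargc1a, a coactivator of fasting genes, changed by -0.55, 0.59 and 0.37 in the 3 comparisons, and Crtc2 and Atf4 by 0.41, -0.31 and -0.41 and by 0.38, -0.19 and -0.21. Foxo1 and Ppara changed by -0.82 and -0.69 with liproxstatin-1 and by -0.55 and -0.40 with Mito-TEMPO. Ctnnb1 rose by 0.24 with FAC, and Ghr by 0.14 with liproxstatin-1 against FAC. The call of Ghr was lost without any 1 of FAC replicates 1 and 2 and Lip-1+FAC replicates 1, 2 and 3, at 0.12 to 0.15. That of Ppargc1a with Mito-TEMPO was lost without FAC replicate 2, at 0.33, FAC replicate 3, at 0.31, MT+FAC replicate 1, at 0.30, or MT+FAC replicate 2, at 0.39. For Cebpb with liproxstatin-1 the call was lost without FAC replicate 2, at -0.64, Lip-1+FAC replicate 2, at -0.93, or replicate 3, at -0.73. With Mito-TEMPO it was lost without FAC replicate 2, at -0.66, or any MT+FAC replicate, at -0.98 to -0.86.

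Markers of liver zones were listed because several of the 10 genes are zonal in the intact liver. Without the 10 genes, 13 periportal markers were tested. FAC raised 2 and lowered 5, and each pretreatment raised 2 and lowered 7 against FAC, with medians of -0.08, -0.24 and -0.23. The shares of all genes raised and lowered were 17.5% and 19.1% with FAC, 20.7% and 19.2% with liproxstatin-1 and 21.2% and 19.7% with Mito-TEMPO. Pck1, a gluconeogenic enzyme, changed by -1.21 with FAC and by -1.21 and -1.03 against FAC. Cdh1 rose by 0.49 with FAC and changed by -1.40 and -0.94 against FAC. Apof and Hsd17b13 went the other way, at -0.59, 0.52 and 0.52 and at -0.41, 0.58 and 0.47 in the 3 comparisons. Ctsc stood at 0.32, -0.45 and -0.48, and Aldh1b1 changed by -0.67 with FAC. Of 18 pericentral markers without the 10 genes, 13 were tested, and Rhbg, Slc22a3, Lgr5, Axin2 and Cyp7a1 had at most 18 counts in a library. FAC raised 5 and lowered 3 (all genes 17.5% and 19.1%), liproxstatin-1 raised 3 and lowered 7 (all genes 20.7% and 19.2%), and Mito-TEMPO raised 4 and lowered 6 (all genes 21.2% and 19.7%). Medians were 0.25, -0.42 and -0.34. Cyp2e1, a cytochrome P450 of the pericentral zone, rose by 0.42 with FAC and changed by -1.66 and -1.49 against FAC. Rgn, Cyp1a2 and Cyp2c37 were lower against FAC as well, at -1.14, -0.67 and -0.61 with liproxstatin-1 and -1.13, -0.67 and -0.74 with Mito-TEMPO. Aldh1a1 rose by 0.93 in each, and Rnf43 by 0.50 and 0.57. Tbx3 changed by -1.92 with FAC, and Ahr rose by 0.47 and Gulo changed by -0.34. Cyp2a5 was the 1 gene of all these lists called between the pretreatments, at -0.51 with Mito-TEMPO against liproxstatin-1 (adjusted p = 0.0379 by edgeR). It had risen with FAC by 0.53 and against FAC by 0.85 and 0.33. Its counts are uncertain, because it belongs to a gene family with near-identical members. The call of Cyp2e1 with FAC was lost without control replicate 2 or 3, at 0.36 each, or FAC replicate 3, at 0.31. Periportal and pericentral lists therefore each held members that were lower and members that were higher in the pretreated groups than in FAC.

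The genes whose course over the 12 libraries was most like that of Cps1, Ass1, Gls2 and Glul were found by Pearson's r of log2 CPM among 9000 protein-coding genes with a mean of at least 5 CPM. The coefficients describe these libraries, which fall into 4 groups, so that differences between the groups enter them. Cps1 was followed by Ptgfr (r = 0.974) and Acsl1 (r = 0.963). Gls2 was followed by Cyp2e1 (r = 0.990), Chchd6 (r = 0.985) and Ces2a (r = 0.984). Mean levels of Cyp2e1 were 335 ± 50.5 CPM (SD, n = 3) in control and 449 ± 65.3 CPM in FAC, with 141.8 ± 13.1 CPM after liproxstatin-1 and 159 ± 15.7 CPM after Mito-TEMPO. Ass1 was followed by Ces2a (r = 0.970), Tpi1 (r = 0.968) and Hal (r = 0.966). For Glul, the highest coefficients were lower, at 0.883 for Fgf21, 0.866 for Pex13 and 0.866 for Khk.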

How the data were processed

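Per the labels' protocols, total RNA of hepatocytes was turned into full-length cDNA with the SMART-Seq v4 kit and sequenced as paired-end Nextera XT libraries. Raw read counts per gene were deposited by the authors. The submitters' processing notes name STAR and GRCm38, and the aligner version and annotation are not given in the sources used here. The unstranded column was used. Reads that fit several genes are not counted in this layout, no molecular identifiers are named, and nothing states that replicates came from separate animals, so that p-values measure the spread between these libraries, which may be technical. Gene names, coordinates and transcript lengths are from GENCODE M21 (GRCm38), which holds 55227 of the 55487 identifiers; the others held 0.0021% of counts. Unmapped, multimapping, no-feature and ambiguous reads, 18.8% to 24.2% of those listed per library, stayed out.

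Counts were filtered by filterByExpr, scaled by TMM and tested with the quasi-likelihood test of edgeR 4.0.16 (R 4.3.3) in a model of 4 groups over 12 libraries, without covariates. Two-sided p-values were adjusted by Benjamini-Hochberg over 13535 genes, and a gene is called under 0.05. Standard errors were computed as the fold change over the root of F. The fit was also run on simulated data with fewer changed genes than were called here. The outcome of that run is not reported here. Alternatives were RLE and upper-quartile scaling, other filters, DESeq2 1.42.0, smaller fits, a replicate block, the stranded columns and each replicate left out. The text names all 10 genes, up to 3 called rises and falls per wider list with a mean of at least 5 CPM, genes fixed by name, and up to 3 genes most like each of 4 members; some of these are not reported here. Members and lists were chosen with earlier results of these data known. Near-identical transcripts were searched with blastn 2.17.0+ (identity at least 90% over 100 bases).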

Additional observations from a re-analysis of the deposited data

How the results depend on the processing

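Of 840 refitted values of the 10 genes, 792 kept their direction and their side of the threshold, 20 lost a call, 3 gained one and 25 changed sign, 0 of the latter being called values. The number of the 10 genes called ran from 4 to 6 with liproxstatin-1 against FAC and from 4 to 7 with Mito-TEMPO against FAC. The number of genes called in MT+FAC against Lip-1+FAC, 182, was 477 with no filter on low counts, 422 with DESeq2, 312 with only the groups compared in the fit and 74 to 156 without a replicate. Of the values of the wider named genes, 1703 kept direction and side, 65 lost a call, 9 gained one and 23 changed sign. The causes were not tested. Same-numbered libraries of different groups deviated with r from -0.249 to 0.164, so that the numbers show no pairing. With the replicate block, Glul in Lip-1+FAC against FAC was called at 0.68 (adjusted p = 0.0133 by edgeR), and Nags in MT+FAC against FAC was not, at 0.28. Otc and Glul had the lowest mean CPM of the 10 genes, with libraries at 9.82 to 25.5 CPM.

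The following log2 fold changes, not called as reported, changed sign. Asns in FAC against control was 0.0165 with RLE scaling, 0.011 with no filter, 0.00491 with genes of mean CPM 5 or more, 0.0165 with DESeq2, 0.0148 with only the groups compared and 0.00717 with the stranded columns. Nags in Lip-1+FAC against FAC was -0.00586 with genes of mean CPM 5 or more and -0.0482 with the stranded columns. Otc in MT+FAC against FAC was -0.000596 with RLE scaling, -0.00781 with genes of mean CPM 5 or more, -0.000757 with DESeq2 and -0.0138 with the stranded columns. Cebpa in MT+FAC against FAC was -0.00122 with RLE scaling, -0.00745 with genes of mean CPM 5 or more, -5.26e-05 with DESeq2 and -0.0203 with the stranded columns. Slc7a2 in MT+FAC against FAC was 0.00466 with upper-quartile scaling and 0.000618 with no filter. In MT+FAC against FAC, fits without a replicate gave -0.0687 to 0.128 for Arg1, -0.0901 to 0.104 for Cebpa, -0.061 to 0.0966 for Hnf4a, -0.129 to 0.155 for Otc and -0.0683 to 0.0395 for Slc7a2. In MT+FAC against Lip-1+FAC, fits without a replicate gave -0.0259 to 0.0484 for Asl and -0.0636 to 0.0842 for Cps1. In FAC against control, fits without a replicate gave -0.0405 to 0.0463 for Asns, -0.0972 to 0.113 for Ass1, -0.0744 to 0.154 for Cebpa, -0.123 to 0.128 for Oat, -0.0231 to 0.215 for Otc and -0.107 to 0.0404 for Slc25a13. In MT+FAC against control, fits without a replicate gave -0.262 to 0.283 for Glul and -0.00505 to 0.222 for Otc. In Lip-1+FAC against FAC, fits without a replicate gave -0.0917 to 0.123 for Nags and -0.0199 to 0.0839 for Slc25a15.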
